A study of Mus musculus with 6 samples.

Results

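The guanylin pathway and the ion transporters around it were followed in RNA-seq of mouse intestinal organoids, which are 3-dimensional epithelial cultures. The 10 genes were chosen by name from the 24956 rows of the deposited table: the peptides Guca2a and Guca2b, their receptor Gucy2c, the chloride channel Cftr, the chloride loader Slc12a2, the anion exchangers Slc26a3 and Slc26a6, the sodium-proton exchangers Slc9a2 and Slc9a3, and the carbonic anhydrase Car4. All 10 had a row. Organoids grown in low glutamine medium (3 libraries) were compared with organoids in control medium (3 libraries). Both groups carry Apc Min, a truncating allele of the Wnt pathway scaffold Apc that predisposes mice to intestinal adenomas, and the labels class the cells as primary. The sources used here give no glutamine concentration, no time in the medium, no part of the intestine and no age or number of animals. The series title sets the comparison in work on alpha-ketoglutarate, Wnt signalling and differentiation.

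Guanylin (Guca2a) and uroguanylin (Guca2b) are peptide hormones that the gut epithelium secretes into its own lumen. They bind guanylyl cyclase C (Gucy2c) on the brush border, and the cGMP made there opens the chloride channel Cftr and inhibits sodium uptake through Slc9a3, so that salt and water move toward the lumen. Chloride for this secretion enters the cell through the basolateral cotransporter Slc12a2, which is typical of crypts, whereas Slc9a2, Slc9a3, Slc26a3 and Slc26a6 sit on the apical side of absorptive cells and exchange sodium for protons and chloride for bicarbonate.

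In low glutamine, both peptides and the apical exchangers fell while the secretory pair Cftr and Slc12a2 rose. Guca2b and Guca2a were 16.6-fold and 6.85-fold lower by the ratio of mean RPKM, and Slc26a6, Slc9a3, Slc26a3 and Slc9a2 were 5.02-fold, 4.29-fold, 4.21-fold and 1.66-fold lower. Slc12a2 and Cftr were 1.77-fold and 1.44-fold higher. The receptor Gucy2c did not pass the test, and Car4 was near 0 in every library. RPKM is the number of reads scaled to the length of the transcript and the depth of the library. The test was limma on log2(RPKM + 1) over the 11082 genes that averaged 1 RPKM or more, with Benjamini-Hochberg adjusted p under 0.05. Of the 9 members tested, 2 were higher and 6 lower. Over all tested genes 66.4% were called in either direction, 36.1% higher and 30.3% lower, so that a call alone is common in this comparison. Of the 9, 5 were called and at least 2-fold lower on that scale, against 4.05% of all tested genes, and 0 were at least 2-fold higher, against 4.22% (with a pseudocount of 5 or a filter at 5 RPKM, 4 members were at least 2-fold lower, without Slc9a3). Their median log2 fold change was -1.62, against 0.03 over all tested genes. The members were chosen with earlier results of these data known, so these shares and medians describe them and are not a test. The 3 values of low glutamine lay wholly above or below those of control for 9 of 9, where 70.2% of all tested genes did so. All 9 averaged over 1 RPKM in each group, so that no member passed the filter through 1 group alone.

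**Figure D1:**
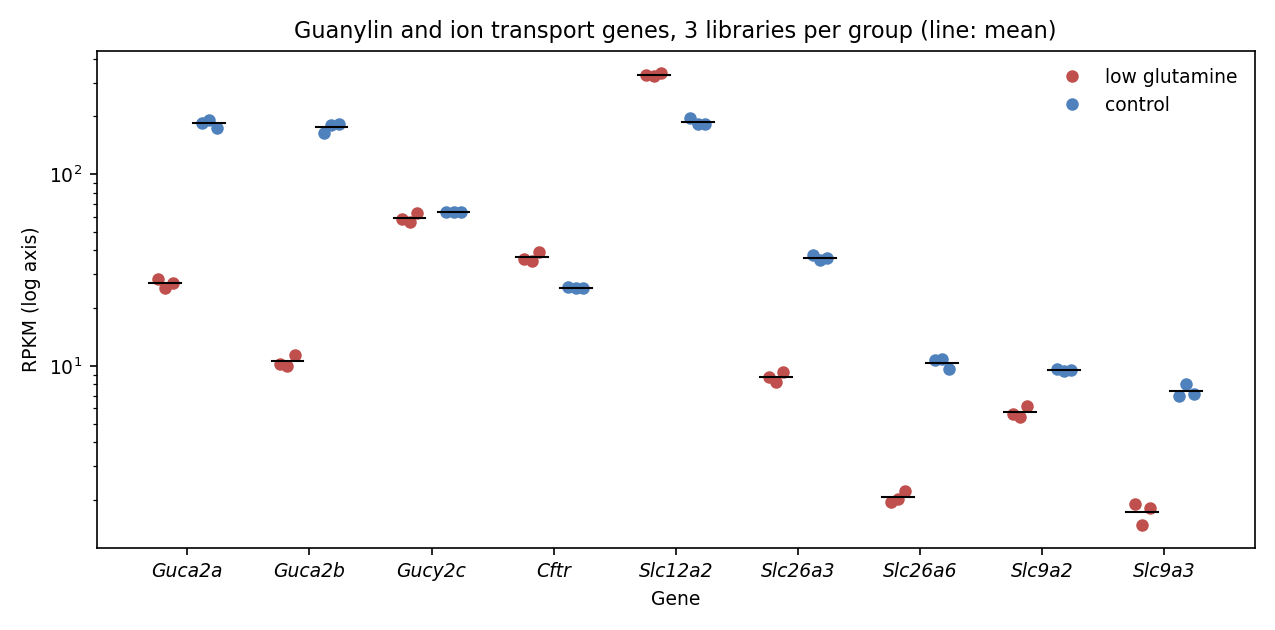
RPKM (log axis) of the 9 members above the filter in each library, low glutamine left of control; points are libraries and lines are means of 3. The groups do not overlap for any of the 9 genes, and Guca2b shows the widest gap, at 10.02 to 11.4 RPKM in low glutamine and 163 to 184 RPKM in control.

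Sex-linked transcripts set the libraries apart as well. Xist, the RNA that silences an X chromosome, averaged 0.0286 RPKM in low glutamine and 87.3 RPKM in control. The Y-linked Eif2s3y averaged 27.7 RPKM in low glutamine against a listed 0 in each control library. Kdm5d and Uty, also Y-linked, averaged 6.82 and 4.60 RPKM in low glutamine and were at 0 in control too, and Ddx3y averaged 9.51 RPKM in low glutamine and 0.0104 RPKM in control. This is the pattern of female cells in control and of male cells in low glutamine, so the groups differ in sex and in animal of origin. The medium and this difference coincide in all 6 libraries and cannot be told apart for any gene described here. No member lies on a sex chromosome, and the calls of all 9 tested members were the same when autosomal genes alone were fitted. That fit leaves the values of the members unchanged, so it cannot separate sex from medium. Estimated depths were 28.2 to 33.9 M (mega) reads in low glutamine and 24.3 to 35.3 M reads in control. Libraries correlated at 0.996 to 0.998 within groups and 0.922 to 0.927 between groups on the log2 scale, across genes, which are not independent. The calls were 54.4% higher ones, and 69.1% with libraries rescaled to a common RPKM sum, 71.7% with the same rescaling without the ribosomal precursor Rn45s, and 42.1% with median-of-ratios scaling. Over all genes, the median log2 fold change was 0.03 as deposited and 0.14 and 0.17 after these rescalings to a common sum.

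Markers of epithelial cell types differed between the groups too, and those of differentiated types did not all move the same way. The epithelial marker Vil1, a microvillus protein, averaged 133 RPKM in low glutamine and 190 RPKM in control. Vil1 is on the enterocyte list too and is among the 22 counted next as lower. Of 26 tested enterocyte markers, genes of the absorptive cells, 22 fell and 4 rose, with a summed level of 1120 to 1243 RPKM in low glutamine and 3514 to 3737 RPKM in control. Among them the disaccharidases Lct and Sis had log2 fold changes of -3.51 and -3.38, and the keratin Krt20 averaged 11.8 RPKM in low glutamine and 72.9 RPKM in control. The 4 that rose were Anpep (466 RPKM in low glutamine, 220 RPKM in control), Alpi (20.3 and 11.4 RPKM in the same order), Apob and Ada. Of 12 goblet cell markers, genes of the mucus-secreting cells that are a source of guanylin, 10 fell and 1 rose (894 to 984 RPKM summed in low glutamine, 1890 to 2230 RPKM in control). The leading ones by p were Fcgbp, Zg16 and the mucin Muc2, lower by log2 fold changes of -1.67, -1.93 and -1.05. Of 11 stem cell markers all 11 rose, among them Lgr5 (113 RPKM in low glutamine, 42.5 RPKM in control), Tnfrsf19 and Cd44, and their sum was 1632 to 1816 RPKM in low glutamine and 815 to 884 RPKM in control. Of 13 Paneth cell markers 12 rose, led by Defa30, Habp2 and Mmp7 (7056 to 7846 RPKM summed in low glutamine, 2620 to 2773 RPKM in control). Defa30 belongs to a family of near-identical copies and its own level is uncertain. Lysozyme (Lyz1) averaged 462 RPKM in low glutamine and 310 RPKM in control. Of 14 enteroendocrine markers 11 rose and 3 fell, with Neurog3, Tac1 and Ghrl foremost (1478 to 1681 RPKM summed in low glutamine, 451 to 466 RPKM in control). The 3 that fell were Gcg (16.1 RPKM in low glutamine, 84.8 RPKM in control), Pyy and Nts. Of 5 tested tuft cell markers 4 rose, Pou2f3 and Avil foremost, and Il17rb fell (10.01 to 11.1 RPKM summed in low glutamine, 6.42 to 7.58 RPKM in control). Of these counts, 24 enterocyte, 10 goblet, 11 Paneth, 13 enteroendocrine, 3 tuft and 11 stem cell markers reached 1 RPKM in both groups. The other tested markers passed the filter through 1 group alone, where they are high, as did Lct through control and Avil through low glutamine. Of the 3 tuft cell markers that reached 1 RPKM in both groups, 2 rose and 1 fell. Over all tested genes, 36.1% were called higher and 30.3% lower. The sums weigh the most abundant genes, such as the Paneth cell marker Defa17 at 3130 RPKM in low glutamine and 759 RPKM in control. Stromal markers summed to at most 0.653 RPKM in low glutamine and 0.606 RPKM in control, with Col3a1 and Lum at 0 in all 6 libraries. Immune markers summed to at most 0.791 RPKM in low glutamine and 1.38 RPKM in control, with Cd4, Adgre1 and Nkg7 at 0 throughout. These are bulk libraries, in which fewer cells of a type and less RNA per cell cannot be told apart, and the part of these markers in the members' changes was not tested.

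The peptide genes are neighbours on chromosome 4 of mm10. Guca2a spans 119637732 to 119639465 on the plus strand and Guca2b 119656601 to 119658945 on the minus strand, so that their 3′ ends face each other across 17135 bases. Upstream sequence is shown for these genes, which changed most, and for Slc26a3, in 5′ to 3′ direction and for the 250 bases before the annotated start (RefSeq, GRCm38.p6). Capitals mark matches, on either strand, to any of 5 motifs: the HNF1 core GTTAAT, the CDX core TTTATG, the HNF4 core CAAAGTC, the TCF/LEF core CTTTGAT and the GATA core AGATAA. These motifs belong to factors of gut epithelium and, for TCF/LEF, to the output of Wnt signalling.
Guca2a, chr4:119637482-119637731, plus strand: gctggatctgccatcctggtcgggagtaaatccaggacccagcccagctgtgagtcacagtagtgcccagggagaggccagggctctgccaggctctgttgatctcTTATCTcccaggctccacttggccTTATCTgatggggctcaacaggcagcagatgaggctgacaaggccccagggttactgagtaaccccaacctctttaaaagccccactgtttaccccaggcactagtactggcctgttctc
Guca2b, chr4:119658946-119659195, minus strand: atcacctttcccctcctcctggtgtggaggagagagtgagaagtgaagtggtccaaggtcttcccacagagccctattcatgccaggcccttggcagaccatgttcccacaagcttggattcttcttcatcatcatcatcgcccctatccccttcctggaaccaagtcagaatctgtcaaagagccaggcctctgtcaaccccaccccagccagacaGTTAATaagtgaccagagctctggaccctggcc
Slc26a3, chr12:31437969-31438218, plus strand: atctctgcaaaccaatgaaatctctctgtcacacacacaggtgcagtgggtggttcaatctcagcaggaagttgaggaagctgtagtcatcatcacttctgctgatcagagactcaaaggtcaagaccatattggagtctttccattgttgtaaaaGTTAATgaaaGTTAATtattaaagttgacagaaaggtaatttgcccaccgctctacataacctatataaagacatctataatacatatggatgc
The Guca2a window held the GATA core at 2 places, which start 144 and 120 bases before the gene start, both on the opposite strand. The Guca2b window held the HNF1 core once, 33 bases before the start, and the Slc26a3 window held it at 2 places, 94 and 84 bases before the start. No match overlapped another. Slc26a3 was shown because it shares that motif with Guca2b, a choice made after the matches were seen, and its window precedes a start inside the RefSeq gene bounds. Among 32851 annotated promoters of the same length, 6.43% held the HNF1 core, 9.99% the GATA core, 10.8% the CDX core, 3.84% the HNF4 core and 3.21% the TCF/LEF core. Sequence was matched for 7 of the 10 genes, and the windows of Cftr, Slc26a6, Slc9a3 and Car4 held none of the 5 motifs. A match describes the letters of a window and not a binding site, and binding was not measured.

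Among the ligands, Guca2b stood at 10.2, 10.02 and 11.4 RPKM in low glutamine and at 163, 180 and 184 RPKM in control. Every low glutamine library was below every control library, with no value between. The log2 fold change was -3.94 ± 0.07 (SE, limma adjusted p = 2.5e-13), and 8 of the 11082 tested genes had a lower one. Guca2a, which in the gut is made by goblet cells as well as enterocytes, stood at 28.4, 25.4 and 26.9 RPKM in low glutamine and at 186, 192 and 175 RPKM in control. The groups were again apart, by -2.73 ± 0.06 (adjusted p = 2.1e-12), and 46 tested genes had a lower log2 fold change. With an annotated transcript of 594 bases and the estimated depths, Guca2a rested on about 450 to 572 reads per low glutamine library and 2525 to 4034 reads per control library. Guca2b rested on about 195 to 241 reads in low glutamine and 2699 to 4432 reads in control, over its shortest and longest coding transcripts of 605 and 697 bases. Together the peptides summed to 38.6, 35.4 and 38.4 RPKM in low glutamine and 349, 373 and 358 RPKM in control.

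The peptides did not keep their proportion. The linear ratio of Guca2b to Guca2a was 0.359, 0.394 and 0.425 in low glutamine and 0.878, 0.936 and 1.05 in control. In control the ranges of the peptides overlapped, and in low glutamine Guca2a was higher than Guca2b in each library. The log2 ratio of RPKM + 1 averaged -1.27 ± 0.11 in low glutamine and -0.07 ± 0.13 in control (SD, n = 3 each), a difference of -1.20. An exact two-sided permutation test gave p = 0.1, the smallest that 3 against 3 libraries allow, and 0.133 adjusted over the 4 ratios compared.

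Of the other genes within 100 kb of the pair, Foxj3, a forkhead transcription factor on the Guca2a side, averaged 7.69 ± 0.47 RPKM in low glutamine and 8.29 ± 0.18 RPKM in control (log2 fold change -0.10, adjusted p = 0.14). Frg2f1 was lower, at 0.923 ± 0.155 RPKM in low glutamine and 1.54 ± 0.188 RPKM in control (-0.40, adjusted p = 8.9e-04). Hivep3, on the Guca2b side, was at 0.0358 RPKM in low glutamine and 0.0119 RPKM in control and was under the filter. RefSeq places 2 long non-coding RNAs, Gm35761 and Gm35957, beside Guca2b, which are not analysed here. Gm35761 (119658285 to 119663760) runs across the 5′ end of Guca2b.

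The receptor did not follow its ligands. Gucy2c stood at 58.3, 56.6 and 62.6 RPKM in low glutamine and at 63.6, 63.3 and 63.9 RPKM in control. Every low glutamine value was under every control value. The log2 fold change was -0.10 ± 0.06, with a 95% interval of -0.22 to 0.02 and an adjusted p of 0.12 by limma. The direction depends on the scaling. It was 0.022, 0.050 and 0.055 after common-sum rescaling, after the same without Rn45s and after quantile normalization, none past the threshold, and -0.20 with median-of-ratios scaling (adjusted p = 8.4e-04). Low glutamine replicate 3, the highest of its group, decides the call, since without it Gucy2c was called lower (-0.14, adjusted p = 0.0094). Over the 18 alternatives the adjusted p ran from 8.4e-04 to 0.56.

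**Figure D2:**
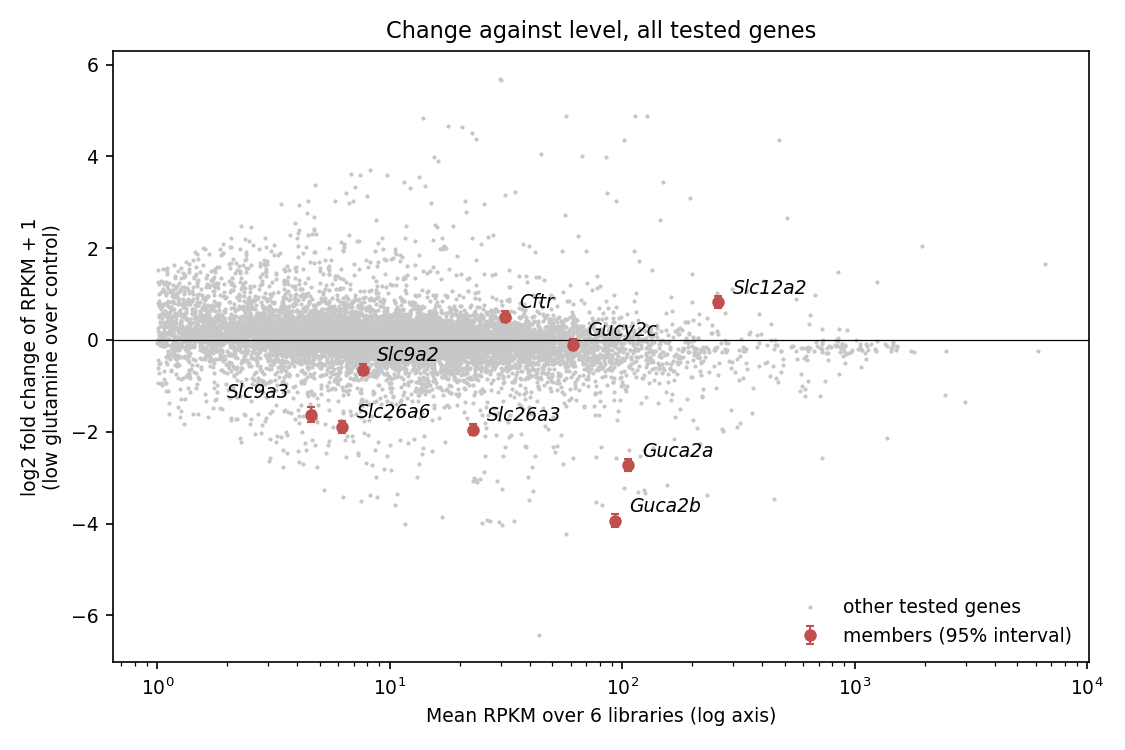
Log2 fold change of RPKM + 1, low glutamine over control, against mean RPKM over 6 libraries (log axis) for all tested genes (grey) and the 9 tested members (red, bars are 95% intervals of the fold change). Guca2b at -3.94 and Guca2a at -2.73 lie near the lower edge of all genes at their level, Gucy2c lies at -0.10 and Slc12a2 at 0.82.

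The secretory transporters moved the other way. Slc12a2, which loads chloride across the basolateral membrane and is a marker of crypt cells, stood at 330, 325 and 336 RPKM in low glutamine and at 196, 182 and 183 RPKM in control. All low glutamine libraries were higher, by 0.82 ± 0.06 on the log2 scale (adjusted p = 1.2e-07), and 648 tested genes had a higher log2 fold change. By mean RPKM it was the highest member per length in low glutamine, above 98.8% of the tested genes, and it stood above 97.5% of them in control, where its values overlapped those of Guca2a. Cftr, the apical chloride channel, stood at 36.0, 35.3 and 39.1 RPKM in low glutamine and at 25.8, 25.4 and 25.4 RPKM in control. The groups did not overlap, and the log2 fold change was 0.51 ± 0.05 (adjusted p = 4.4e-06). An antisense gene, Gm15592, shares 129 of the 7765 annotated exon bases of Cftr, and the strand setting of the authors' counting is not stated. Cftr rose less than Slc12a2: the log2 ratio of Cftr to Slc12a2 was -3.13 ± 0.05 in low glutamine and -2.82 ± 0.04 in control (SD, n = 3 each, exact permutation p = 0.1, adjusted 0.133).

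Both apical anion exchangers fell. Slc26a3, the main chloride-bicarbonate exchanger of the lower gut, stood at 8.71, 8.24 and 9.26 RPKM in low glutamine and at 38.0, 35.6 and 36.6 RPKM in control (log2 fold change -1.96 ± 0.06, limma adjusted p = 1.9e-11). Slc26a6, an anion exchanger that also carries oxalate, stood at 1.95, 2.03 and 2.23 RPKM in low glutamine and at 10.7, 10.8 and 9.66 RPKM in control (-1.89 ± 0.06, adjusted p = 6.2e-11). For both genes each low glutamine library was under each control library. Their log2 ratio was 1.66 ± 0.05 in low glutamine and 1.73 ± 0.09 in control (SD, n = 3 each), a difference of -0.07 with overlapping values (exact permutation p = 0.4). The sign and the overlap depended on the pseudocount. The linear ratio of Slc26a3 to Slc26a6, with none added, was 4.46, 4.06 and 4.14 in low glutamine and 3.55, 3.29 and 3.79 in control, higher in each low glutamine library. With a pseudocount of 0.1 the log2 difference was 0.21 (exact permutation p = 0.1, the smallest that 3 against 3 libraries allow). Slc26a6 rested on about 26.3 to 290 reads per low glutamine library, a range set by annotated coding transcripts of 418 to 4362 bases.

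The sodium-proton exchangers fell unequally. Slc9a3, the exchanger that cGMP inhibits, stood at 1.90, 1.48 and 1.81 RPKM in low glutamine and at 6.997, 8.09 and 7.12 RPKM in control (log2 fold change -1.62 ± 0.07, adjusted p = 1.4e-09). Slc9a2, the other apical isoform, stood at 5.59, 5.44 and 6.21 RPKM in low glutamine and at 9.68, 9.40 and 9.52 RPKM in control (-0.64 ± 0.06, adjusted p = 7.0e-07). Neither pair of groups overlapped, and Slc9a2 was the less changed of the 6 members that fell. The log2 ratio of Slc9a3 to Slc9a2 was -1.31 ± 0.11 in low glutamine and -0.33 ± 0.12 in control (SD, n = 3 each), a difference of -0.98 (exact permutation p = 0.1, adjusted 0.133). Per length, Slc9a2 was the more abundant of the isoforms in every library.

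**Figure D3:**
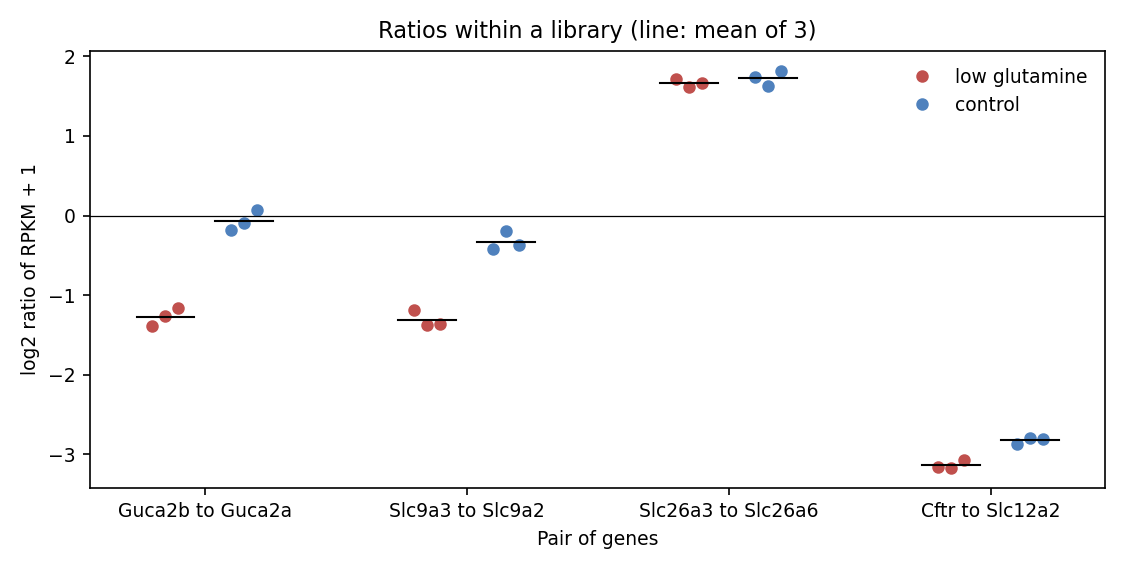
Log2 ratio of RPKM + 1 of 4 pairs of genes within each library, low glutamine left of control, with lines at means of 3. The groups are apart for Guca2b to Guca2a (-1.27 in low glutamine, -0.07 in control), for Slc9a3 to Slc9a2 and for Cftr to Slc12a2, and overlap for Slc26a3 to Slc26a6, which were apart the other way, higher in low glutamine, as linear ratios.

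Car4, a membrane-anchored carbonic anhydrase found on the apical surface of colon cells, was listed at 0 in all 3 low glutamine libraries and in control replicates 1 and 3. The single value above 0 was 0.0217 RPKM in control replicate 2, which equals 0.963 reads for the longest coding transcript of 1256 bases at the estimated depth. It was under the filter and was not tested.

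By level, the order of the members differed between the groups. In low glutamine it was Slc12a2, Gucy2c, Cftr, Guca2a, Guca2b, Slc26a3, Slc9a2, Slc26a6, Slc9a3 and Car4, and no neighbours in this order overlapped. In control it was Slc12a2, Guca2a, Guca2b, Gucy2c, Slc26a3, Cftr, Slc26a6, Slc9a2, Slc9a3 and Car4. There Slc12a2 overlapped Guca2a, Guca2a overlapped Guca2b and Slc26a6 overlapped Slc9a2, while the other neighbours did not overlap. Guca2b stood above 52.3% of the tested genes in low glutamine and above 97.4% in control. Cftr and Slc26a3 exchanged places, with Cftr above 86.3% of tested genes in low glutamine and 78.2% in control, and Slc26a3 above 46.0% in low glutamine and 84.8% in control. The 10 genes summed to 481, 470 and 495 RPKM in low glutamine and 700, 707 and 693 RPKM in control.

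The genes with the profile most like that of Guca2a over the 6 libraries were the iron transporter Slc11a2, Ceacam20 and the sterol transporter subunit Abcg5, at distances of 0.088, 0.144 and 0.150. Distance is Euclidean over centred log2(RPKM + 1) values, among 7993 genes that averaged 5 RPKM or more. Nearest to Guca2b were the cytochrome P450 Cyp3a25, the glutamyl transferase Ggt1 and Npl, at 0.128, 0.163 and 0.217. Nearest to Gucy2c were the RNA-binding protein Rbm10, the ribosomal protein Rpl10a and the peroxisomal protein Pex2, at 0.021, 0.022 and 0.025. With 2 groups of 3, such likeness is set mainly by the size of the group difference.

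The wider set of ion transport and cGMP genes held 128 genes with a row in 7 lists, of which 66 were tested. Of these 15 were higher, 35 were lower and 16 were not called, with a median log2 fold change of -0.18 (0.03 over all tested genes, of which 36.1% were higher and 30.3% lower). The split was 24 higher and 31 lower with rescaling to a common sum without Rn45s, and 32 higher and 38 lower without a filter on low values. Of the 66, 58 averaged at least 1 RPKM in each group, and the other 8 did not. Vipr1, Slc9a3r2, Scnn1a, Slc34a2 and Clca1 passed the filter through control alone, and Shank2, Car2 and Car15 through low glutamine alone. Of these, Slc9a3r2 and Car15 were not called, and the others are part of the counts of called genes.

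Of the 9 tested genes of cGMP and second messenger signalling, 3 were higher and 3 lower (median -0.03), and 12 were under the filter. The kinase Prkg2, which carries the cGMP signal to Cftr and Slc9a3 in enterocytes, averaged 15.7 ± 1.68 RPKM in low glutamine and 25.1 ± 0.57 RPKM in control (-0.65 ± 0.07, limma adjusted p = 3.5e-06). The cGMP-inhibited phosphodiesterase Pde3a fell by 0.71 on the log2 scale, and the receptor Vipr1 for the secretagogue peptide VIP fell by 1.05. Vipr1 passed the filter through control alone. The cyclic nucleotide exporter Abcc4 rose by 1.05, the cAMP phosphodiesterase Pde4d by 0.60 and the adenylyl cyclase Adcy6 by 0.13. The cGMP phosphodiesterases did not pass, with Pde5a at 15.2 RPKM in low glutamine and 14.5 RPKM in control, and Pde9a at 5.49 and 5.87 RPKM in the same order. The other membrane guanylyl cyclases and the soluble cyclase were low: Npr1 averaged 0.27 RPKM in low glutamine and 0.0607 RPKM in control, and Npr2, Gucy1a1, Gucy1b1, Gucy2d and Gucy2e were under 0.1 RPKM in both groups.

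Of the 14 tested scaffolds and regulators of Cftr and Slc9a3, 4 were higher and 6 lower (median -0.13). Pdzd3, a scaffold that binds Gucy2c and Slc9a3, averaged 1.18 ± 0.14 RPKM in low glutamine and 9.65 ± 0.62 RPKM in control, with a log2 fold change of -2.29 ± 0.07 (adjusted p = 2.2e-11). The exchanger cofactor Chp2 and the scaffold Pdzk1 fell by 0.86 and 0.57. The kinases Stk39 and Wnk1, which activate Slc12a2, rose by 0.77 and 0.42, and the related kinase Oxsr1 fell by 0.41. Shank2 rose by 0.55 and passed the filter through low glutamine alone. The kinase Sgk1, under the filter, averaged 0.226 RPKM in low glutamine and 1.24 RPKM in control.

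Of the 6 tested genes of sodium-proton exchange and sodium entry, 3 were lower and 0 higher (median -0.37). The sodium-glucose cotransporter Slc5a1, which is also on the enterocyte list, averaged 38.7 RPKM in low glutamine and 208 RPKM in control (-2.40), and the phosphate transporter Slc34a2 averaged 0.162 RPKM in low glutamine and 4.42 RPKM in control. The sodium channel subunit Scnn1a fell by 0.68. Slc34a2 and Scnn1a passed the filter through control alone, where they are high. In this list 4 tested genes averaged at least 1 RPKM in each group, and of these Slc5a1 alone was called. The Golgi sodium-proton exchanger Slc9a8 did not pass, at 9.45 RPKM in low glutamine and 9.03 RPKM in control.

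Of the 15 tested anion exchangers, anion channels and bicarbonate transporters, 2 were higher and 11 lower (median -0.41). Clca4b, of the calcium-activated chloride channel regulator family, averaged 21.8 RPKM in low glutamine and 229 RPKM in control (-3.34 ± 0.07, adjusted p = 7.6e-13). Its relatives Clca3b and Clca3a1 rose by 1.44 and 0.97, with Clca3b at 292 RPKM in low glutamine and 107 RPKM in control. Reads of this family could be split between near-identical copies, so that single levels are uncertain. Ano6, a scramblase of the anoctamin family, fell by 1.62, and Clca1, a secreted goblet cell product, by 1.10. Clca1 passed the filter through control alone. The sulphate transporter Slc26a2, another exchanger of the family of Slc26a3, averaged 6.85 RPKM in low glutamine and 11.2 RPKM in control, and the basolateral bicarbonate loader Slc4a4 19.4 and 22.9 RPKM in the same order. The calcium-activated channel Ano1 was under the filter, at 1.44 RPKM in low glutamine and 0.119 RPKM in control.

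Of the 13 tested potassium channels, cotransporters and pumps, 4 were higher and 7 lower (median -0.17). Atp1b1, a subunit of the sodium pump that drives sodium-coupled transport, averaged 396 RPKM in low glutamine and 581 RPKM in control (-0.55). The basolateral channel Kcnq1, which recycles potassium during cAMP-driven chloride secretion, averaged 110 RPKM in low glutamine and 71.8 RPKM in control (0.61, adjusted p = 2.4e-06). Its partner Kcne3 fell by 0.17, close to the threshold (limma adjusted p = 0.049) and with overlapping groups. The calcium-activated channel Kcnn4 fell by 0.33. The pump regulator Fxyd3 rose by 1.26 and the channel Kcnk1 by 0.63, while Kcnk5 fell by 1.03.

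Of the 6 tested carbonic anhydrases other than Car4, 2 were higher and 3 lower. Car2, the main cytosolic form of many epithelia, averaged 11.1 ± 0.22 RPKM in low glutamine and 0.483 ± 0.162 RPKM in control (3.04 ± 0.07, adjusted p = 4.9e-12), and passed the filter through low glutamine alone. The membrane-bound Car12 rose by 0.69, and Car9, the most abundant form, averaged 93.4 RPKM in low glutamine and 130 RPKM in control. Car8 and Car13 fell by 0.70 and 0.40. Of the 3 tested aquaporins 2 fell: Aqp11 by 1.04 and Aqp4 by 0.36, while Aqp1 averaged 134 RPKM in low glutamine and 133 RPKM in control.

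**Figure D4:**
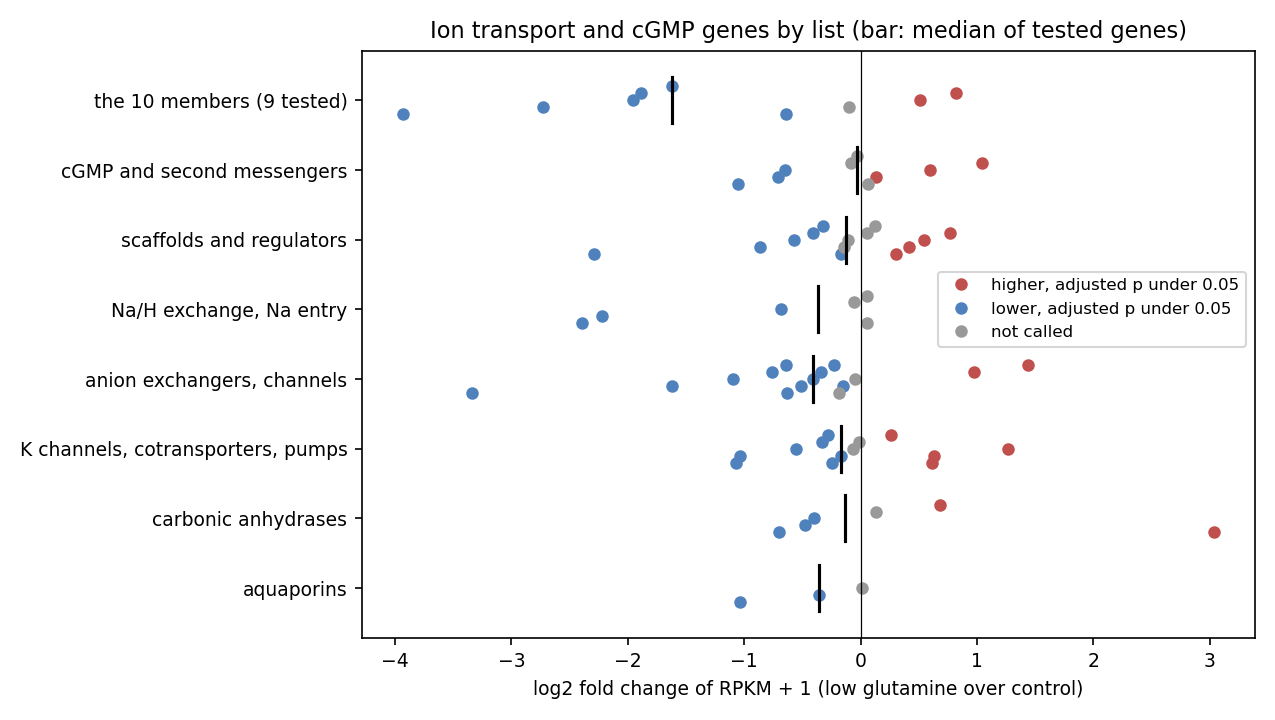
Log2 fold change of RPKM + 1, low glutamine over control, of the members and of each list of other ion transport and cGMP genes, for tested genes only; colours give the limma call and bars the median. The median of the members is -1.62 and those of the lists run from -0.41 for the anion transporters to -0.03 for the cGMP genes, with Car2 at 3.04 the farthest to the right.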

How the data were processed

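Per the labels, total RNA of Apc Min organoids was extracted with a Qiagen kit and built into TruSeq libraries. The deposited values are RPKM, made by the authors. CASAVA 1.8, HISAT2 2.0.4 and Partek and the mm10 build stand in the submitters' processing notes without a stated role. Annotation, counting rule and strand are not given in the sources used here.

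RPKM values are not counts, so limma 3.58.1 (R 4.3.3) with a variance trend was fitted to log2(RPKM + 1) of the 11082 genes that averaged 1 RPKM or more. Tests are two-sided. Fold changes on this scale understate the change of low genes. Tables and plots used Python 3.11.15 with pandas 2.3.3. The fit was tested on simulated data, in which genes varied independently and few were changed, by known folds. Differences of scaling between libraries and of sex between the groups were not simulated, so that test does not cover them.

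Depth was estimated from 215 to 278 low values per library among 2366 single-exon genes, as the depth at which most of them came out as whole reads. At that depth 69.3% to 75.3% were whole within 0.02, and the others were not. Read numbers quoted are therefore approximate, and the transcript lengths of the authors were not used here. Gene bounds are 1-based RefSeq bounds of GRCm38.p6 (mm10).

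The series' design text calls the samples biological replicates. Nothing says that the samples of a group came from separate animals or cultures. The p-values therefore reflect the spread between the libraries, which may be technical. Same-numbered libraries of the groups deviated together (correlations of 0.15, 0.25 and 0.57 for replicates 1 to 3, over 11082 genes). The match was not particular to the numbers: r was 0.36 between replicate 1 in low glutamine and replicate 2 in control, and 0.20 between replicate 2 in low glutamine and replicate 1 in control. The labels do not pair the libraries, so the main fit was unpaired. The alternatives were other pseudocounts, filters and scalings, autosomal genes alone, no variance trend, a replicate block and each library left out.

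The members and lists were chosen with earlier results of these data known. All members are named, and from each list up to 3 called genes per direction with the smallest p, some of which are not reported here. Vil1, Oxsr1, Slc26a2, Slc4a4, Kcne3, Kcnn4 and the list genes described as not passing or under the filter were named after their values were seen. So were the enterocyte markers that rose and the enteroendocrine markers that fell.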

Additional observations from a re-analysis of the deposited data

How the results depend on the processing

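The 8 called members kept their direction and call under every alternative in which they were tested, 18 for each and 17 for Slc9a3, which falls under a filter at 5 RPKM. Of 279 values recomputed, 271 were classed as unchanged and 8 were not. The 279 include counts, which have no direction or threshold, and ratios, whose exact permutation p cannot fall below 0.1. The count of called genes, classed as unchanged throughout, ran from 5279 with a filter at 5 RPKM to 9196 without a filter. For Gucy2c, the log2 fold change was -0.20 with median-of-ratios scaling, where it was called lower. It turned to 0.055 with quantile normalization, 0.022 after common-sum rescaling and 0.050 after the same without Rn45s, and ran from -0.14 to -0.072 with 1 library left out. The log2 ratio of Slc26a3 to Slc26a6 differed by 0.21 between groups with a pseudocount of 0.1, against -0.07 with 1. The count of other ion transport and cGMP genes higher in low glutamine was 32 without a filter and 24 with rescaling without Rn45s, against 15. The cause was not tested. With the replicate block, 2 members were higher and 6 lower, and the block changed no call of a member (Gucy2c adjusted p = 0.15). The log2 fold change of Slc9a3 was -2.04 with a pseudocount of 0.1 and -0.88 with 5, and that of Slc26a6 was -2.27 and -1.12 in the same order. Low genes, Car4 above all, are limited by reads: 1 RPKM on a transcript of 1 kilobase is about 24.3 to 35.3 reads.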
